A study of Mus musculus with 8 samples.

Results

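The hexosamine pathway and O-GlcNAc transferase are represented by 10 of the 27534 genes of the deposited table. These were chosen by symbol for their roles, with earlier results of these data known. They are Gfpt1, Gfpt2, Gnpnat1, Pgm3, Uap1, Uap1l1, Nagk, Amdhd2, Renbp and Ogt. All 10 were listed and 9 had enough reads to be tested. The study sequenced RNA from pancreatic islets of C57BL/6J mice held in culture for 72 h, with 4 libraries in RPMI with 20 mM glucose (high glucose) and 4 in RPMI with 7.5 mM glucose (low glucose), all with fetal bovine serum and with no genetic change named. The labels do not say how many animals a library came from or whether the libraries are separate islet preparations, so p-values measure the spread between these libraries, which may in part be technical.

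The hexosamine pathway branches off glycolysis at fructose 6-phosphate and joins it with glutamine, acetyl-CoA and UTP to make UDP-N-acetylglucosamine (UDP-GlcNAc), the sugar donor for N-glycans, other glycans and O-GlcNAc. O-GlcNAc is a single sugar that OGT puts on serines and threonines of nuclear and cytosolic proteins and that the hydrolase OGA takes off again. In β cells the pathway is known as a route by which glucose supply is sensed, and OGT as an abundant enzyme.

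Libraries held 19543045 to 24949515 counts. Summed β-cell markers (6 genes, insulin included) stood at 185000 to 270000 CPM (counts scaled to a common library total after TMM, the trimmed mean of M-values), so that markers of the labelled tissue were abundant in every library. Of these 6 markers 1 was called higher and 3 lower in high glucose. Of 11 marker lists for islet and other cell types, those whose summed CPM did not overlap between the groups were ductal markers (555 to 578 in high and 408 to 525 in low glucose; 6 genes, 1 called higher) and T and B cell markers (2.22 to 3.66 and 5.68 to 9.0; 1 of 4 tested and called lower). Delta markers (2 genes, none called) overlapped, at 2390 to 4000 CPM in high and 1460 to 2890 CPM in low glucose. Between libraries of the same replicate number, the sums of β, delta, acinar, and fibroblast and stellate markers were each higher in high glucose every time. Acinar markers varied most widely, from 1310 to 19200 CPM, and overlapped between the groups. No listed marker of these 11 lists was at 0 in all libraries, and of the 4 T and B cell markers 3 were listed. The part of these cells in the results on the pathway was not tested. In whole islets, fewer cells of a type and less RNA per cell cannot be told apart.

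Of the 9 members tested with edgeR's quasi-likelihood test, 3 were called higher in high glucose and 2 lower, at an adjusted p of 0.05 by Benjamini-Hochberg over all genes. Over all 15442 genes tested, 25.0% were called, 13.1% higher and 11.9% lower. Gfpt1, Pgm3 and Uap1, which build UDP-GlcNAc, were 1.25 to 1.31 times higher in high glucose. Amdhd2, which works in the reverse direction, was 1.61 times lower, and Uap1l1, a relative of Uap1, was 1.99 times lower. Ogt did not pass the test (adjusted p = 0.756). The median log2 fold change of the 9 members was -0.08, beside -0.01 over all genes tested. High and low glucose libraries did not overlap for 4 of the 9 members (27.3% of all genes tested).

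**Figure D1:**
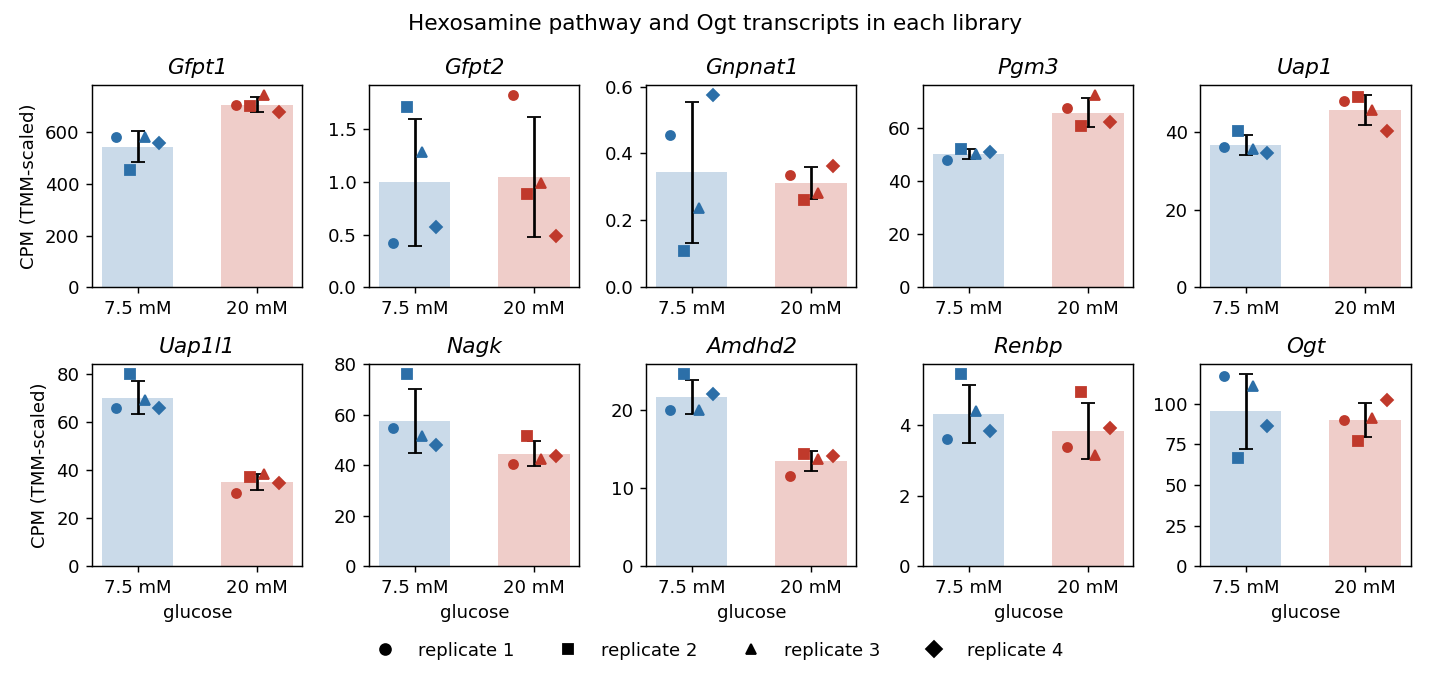
Transcript level of each of the 10 genes in CPM (y axes start at 0 and differ between panels) at 7.5 mM (blue) and 20 mM glucose (red); bars are means of 4 libraries, whiskers the SD, and symbols the libraries by replicate number. Gfpt1 and Pgm3 lie higher and Uap1l1 and Amdhd2 lower in all 4 high glucose libraries, while Ogt, Gfpt2 and Renbp overlap between the groups.

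Promoters are described here because 3 of the synthesis genes, Gfpt1, Pgm3 and Uap1, rose together. RefSeq promoter windows (GRCm38.p6, 250 bases before to 50 after the annotated start) were at hand for 8 of the 10 members, all but Gnpnat1 and Uap1l1. Searched on both strands were TGACGTGG (the core of the unfolded protein response element), CCACG (the short part of the ER stress element), the whole ER stress element (CCAAT and CCACG spaced by 9 bases), TTGCATCA and TGATGNAAT (forms of the amino acid response element) and CACGTG (the E-box). The 250 bases before the start are printed only for the members with a match there. These are Gfpt1, Uap1 and Amdhd2, of which Amdhd2 was lower in high glucose. Pgm3, which rose, had no match before its start and is not printed. The bases run 5′ to 3′ along the gene's strand, with the matches in capitals.
Gfpt1 (chr6:87042596-87042845, plus strand): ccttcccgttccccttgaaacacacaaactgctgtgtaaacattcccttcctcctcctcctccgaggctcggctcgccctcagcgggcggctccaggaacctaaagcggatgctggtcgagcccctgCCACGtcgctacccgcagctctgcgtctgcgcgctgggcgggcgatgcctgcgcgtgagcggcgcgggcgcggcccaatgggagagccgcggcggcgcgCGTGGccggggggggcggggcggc
Uap1 (chr1:170174965-170175214, minus strand): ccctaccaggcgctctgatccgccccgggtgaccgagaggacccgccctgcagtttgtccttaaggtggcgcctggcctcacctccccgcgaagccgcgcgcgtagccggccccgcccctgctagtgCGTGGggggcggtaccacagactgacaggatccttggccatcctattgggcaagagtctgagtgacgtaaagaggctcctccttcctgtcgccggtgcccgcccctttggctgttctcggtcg
Amdhd2 (chr17:24163734-24163983, minus strand): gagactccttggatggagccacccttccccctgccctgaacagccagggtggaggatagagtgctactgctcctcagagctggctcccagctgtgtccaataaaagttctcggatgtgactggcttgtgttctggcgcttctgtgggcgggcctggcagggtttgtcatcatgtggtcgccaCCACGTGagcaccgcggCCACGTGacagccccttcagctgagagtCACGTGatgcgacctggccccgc
Gfpt1 held CCACG at 123 bases before the start and its reverse complement at 24 before, and Uap1 held the reverse complement at 123 before. Pgm3 held CCACG only after its start, with the first base of the match 23 bases downstream of the start base. That short motif was in 32.8% of all 32851 windows. None of the 8 members' windows held TGACGTGG (0.676% of all windows), the whole ER stress element (0.119%), TTGCATCA (0.895%) or TGATGNAAT (0.965%). The Amdhd2 window held CACGTG 3 times, at 67, 50 and 23 bases before the start, and the 2 matches farther from the start are each part of CCACGTG and so overlap CCACG. At least 1 CACGTG was in 7.15% of all windows and at least 3 were in 29 windows, or 0.0883%. The count of 3 was looked at after the Amdhd2 sequence was seen. These are matches of letters, and no binding was measured.

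**Figure D2:**
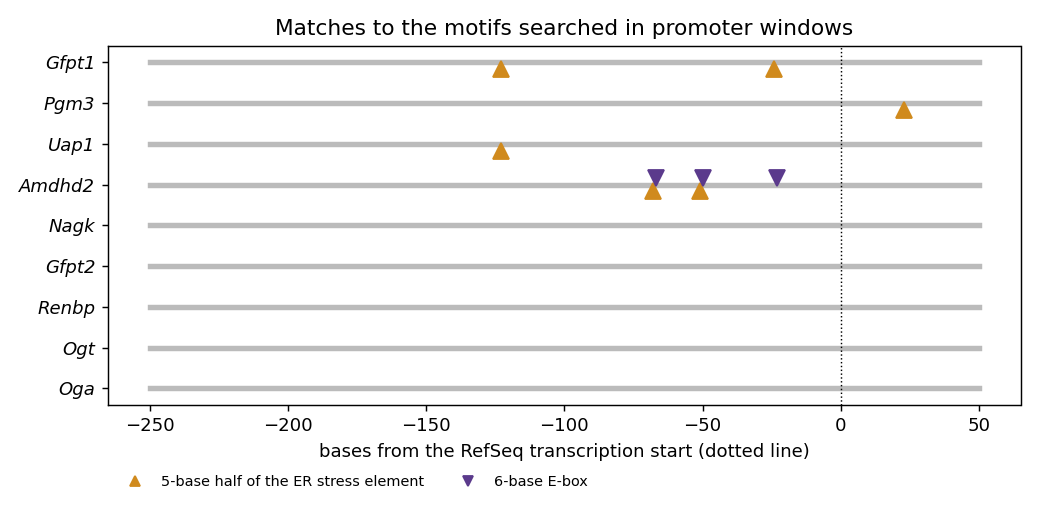
Position of motif matches (x axis, bases from the RefSeq start) in the promoter windows of 8 members and of Oga; upward triangles are CCACG, downward triangles CACGTG, both strands. Amdhd2 alone of the 9 genes drawn has CACGTG, 3 times, and Gfpt1 has CCACG 123 and 24 bases before its start.

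Levels between genes are compared as the authors' FPKM, which divides by gene length. Gfpt1 stood far above the others, at 43.8 to 74.0 FPKM over the 8 libraries, which placed its median of 61.3 at the percentile 98.0 of all genes listed. Uap1l1, Pgm3, Ogt, Nagk and Uap1 followed with medians of 12.6, 12.4, 11.2, 10.5 and 9.85 FPKM, and over all 8 libraries their ranges overlapped. Within a group the place of Uap1l1 differed. In high glucose its 7.43 to 9.40 FPKM lay below those of Uap1 (9.94 to 12) and Pgm3 (13.4 to 16.2) in every library, and in low glucose its 15.7 to 19.1 FPKM lay above those of Uap1 (8.52 to 9.77) and Pgm3 (10.4 to 11.4). Amdhd2 had a median of 6.16 FPKM (4.21 to 8.81) and Renbp one of 1.54 (1.26 to 2.13). The authors list Amdhd2 with 2728 bases, against 3659 exon bases in GENCODE M21, so its FPKM depends on the annotation. Gfpt2 had a median of 0.166 FPKM. Gnpnat1 is listed with a median of 0.0649 FPKM, a value not ranked here because of the exons it shares with another gene, described with its counts. Pgm3 is ranked, but 28.3% of its exon bases are shared with another gene, so its place is uncertain.

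Gfpt1 (ENSMUSG00000029992, GRCm38 chromosome 6, 87042846 to 87092197) encodes the amidotransferase that commits fructose 6-phosphate to the pathway, its rate-limiting step. It was at 705, 700, 746 and 677 CPM in high glucose replicates 1 to 4 and at 582, 454, 581 and 559 CPM in low glucose replicates 1 to 4. Every high glucose library lay above every low glucose library, and low glucose replicate 2 was the lowest of the 8. The log2 fold change was 0.38 ± 0.092 (SE), a 1.30-fold increase with edgeR adjusted p = 0.0128, higher in 4 of 4 same-number pairs. How many of all genes tested go 1 way in all 4 pairs was not counted, here or for the genes below. Its adjusted p was 0.0752 with library size alone as scaling, and 0.0635, 0.0612 and 0.0542 with both libraries numbered 1, 3 or 4 left out.

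Gfpt2 (ENSMUSG00000020363, chromosome 11, 49794178 to 49838613), the second amidotransferase gene, was near the limit of detection. Its counts were 38, 17, 21 and 12 in high and 11, 32, 27 and 12 in low glucose, so the groups overlapped fully. The log2 fold change was 0.09 ± 0.51 (SE) with edgeR adjusted p = 0.923, an error too wide to show a change of the size seen for Gfpt1. The order of libraries was close to that of 9 fibroblast and stellate markers, whose summed CPM was 1530, 385, 324 and 163 in high glucose replicates 1 to 4 and 141, 353, 310 and 144 in low glucose replicates 1 to 4. Gfpt2 was at 1.83, 0.884, 0.990 and 0.485 CPM and at 0.417, 1.71, 1.28 and 0.576 CPM in the same order. The part of such cells in its level was not tested. The count ratio of Gfpt1 to Gfpt2 ran from 385 to 1390 in high and from 265 to 1400 in low glucose (exact permutation p = 0.771, two-sided).

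Gnpnat1 (ENSMUSG00000037722, chromosome 14, 45376334 to 45404913) encodes the acetyltransferase of the second step. It had 7, 5, 6 and 9 counts in high and 12, 2, 5 and 12 in low glucose, too few for the filter on low counts, and 3 counts correspond to 0.114 to 0.161 CPM. In GENCODE M21, 81.9% of its exon bases also lie in exons of Styx, a phosphatase-like gene on the opposite strand. A stretch of 552 bases of its longest coding transcript matched Gm14698, another listed gene, at 99.8% identity, and Gm14698 had 3 to 21 counts. Styx itself had 101 to 208 counts. With the strand setting and the handling of shared reads not given in the sources used here, this count cannot be taken as the level of the transcript. In the authors' deposited table its log2 fold change is -0.153 with adjusted p = 0.904.

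**Figure D3:**
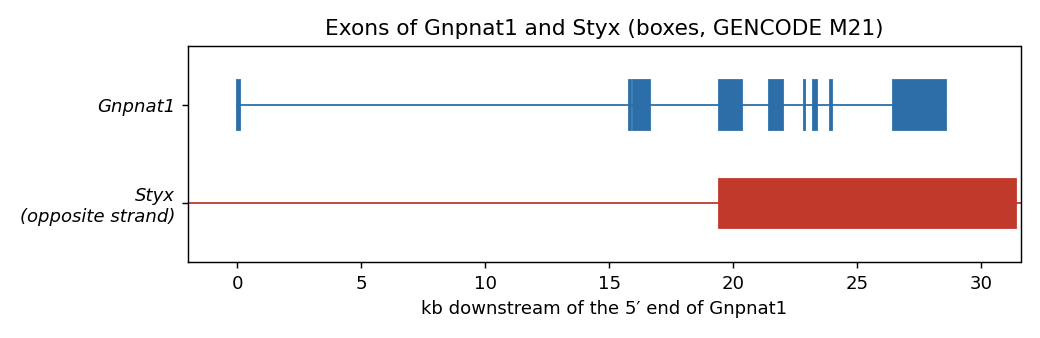
Exons (boxes) of Gnpnat1 and of Styx along the locus, x axis in kb from the 5′ end of Gnpnat1, from GENCODE M21. A single Styx exon block covers all but the 5′ part of Gnpnat1, which amounts to 81.9% of the exon bases of Gnpnat1.

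Pgm3 (ENSMUSG00000056131, chromosome 9, 86554377 to 86571842), the mutase that moves the phosphate from carbon 6 to carbon 1 of the sugar, was at 67.9, 61.1, 72.8 and 62.3 CPM in the high glucose libraries, against 48.0, 52.4, 50.5 and 51.0 CPM in the low glucose ones. The groups did not overlap, and the low glucose libraries were tight. It rose 1.31-fold (log2 fold change 0.39 ± 0.073 SE, edgeR adjusted p = 0.00303), in 4 of 4 same-number pairs. Of its exon bases, 28.3% are shared with Dopey1 (Dop1a in GENCODE) on the opposite strand, so its value is uncertain. Dopey1 was at 50.9 ± 2.84 CPM at 20 mM and 50.2 ± 10.9 CPM at 7.5 mM (SD, n = 4 each).

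Uap1 (ENSMUSG00000026670, chromosome 1, 170141938 to 170174957) encodes the pyrophosphorylase that joins N-acetylglucosamine 1-phosphate to UTP. It was at 48.2, 49.0, 45.8 and 40.3 CPM in the high glucose libraries, against 36.2, 40.3, 35.7 and 34.6 CPM in the low glucose ones. High glucose replicate 4 met low glucose replicate 2, and all other high glucose libraries were above all low glucose ones. Uap1 rose 1.25-fold (log2 fold change 0.32 ± 0.082 SE, edgeR adjusted p = 0.0164), in 4 of 4 same-number pairs. The call was lost on dropping replicate 1 at 20 mM (adjusted p = 0.0503) or replicate 4 at 7.5 mM (0.0549), and the adjusted p was 0.114 and 0.10 with both libraries numbered 1 or 3 left out.

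Uap1l1 (ENSMUSG00000026956, chromosome 2, 25359889 to 25365682), a paralog of Uap1 whose role in the pathway is less settled, showed the largest change of the members tested. It was at 30.7, 37.2, 38.3 and 34.9 CPM in the high glucose libraries, against 65.8, 80.2, 69.2 and 65.9 CPM in the low glucose ones. Every high glucose library lay far below every low glucose library. The log2 fold change was -0.99 ± 0.093 (SE) with edgeR adjusted p = 4.50e-05, lower in all 4 same-number pairs, and it stayed between -1.07 and -0.92 over 18 alternatives with adjusted p of at most 0.00138. Within a library, the count ratio of Uap1 to Uap1l1 was 1.57, 1.32, 1.20 and 1.16 in high and 0.549, 0.503, 0.517 and 0.526 in low glucose. Uap1 thus had more counts than Uap1l1 in all high glucose libraries and fewer in all low glucose ones. The log2 ratio differed by 1.31, with exact permutation p = 0.0286, two-sided, which is the smallest 70 relabellings allow. Adjusted over 4 ratios it was 0.0571, so that the difference did not pass after adjustment. At that smallest p, a ratio passes after adjustment only if most of the 4 ratios reach it, so separation of 1 ratio alone could not pass.

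Amdhd2 (ENSMUSG00000036820, chromosome 17, 24155833 to 24163766) encodes the deacetylase that turns N-acetylglucosamine 6-phosphate back into glucosamine 6-phosphate. It was at 11.6, 14.4, 13.8 and 14.1 CPM in the high glucose libraries, against 20.1, 24.7, 20.0 and 22.1 CPM in the low glucose ones, with no overlap. It fell 1.61-fold (log2 fold change -0.69 ± 0.10 SE, edgeR adjusted p = 0.000908), in all 4 same-number pairs, and was called under each of 18 alternatives (adjusted p of at most 0.0117). Its promoter window held the E-box letters 3 times, and a part of these in its change was not tested. Uap1l1, which fell more, had no promoter window to search. The count ratio of Gfpt1 to Amdhd2, the committing enzyme to the reverse one, was 60.5, 48.6, 54.2 and 48.1 in high and 29.0, 18.4, 29.1 and 25.3 in low glucose. No library of one group reached the other, and the log2 ratio differed by 1.07 (exact permutation p = 0.0286, two-sided, adjusted p = 0.0571). That p is again the smallest the relabellings allow, and the limit given for Uap1 to Uap1l1 holds here too.

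Nagk (ENSMUSG00000034744, chromosome 6, 83794982 to 83804018) encodes the kinase that returns free N-acetylglucosamine from broken-down glycans to the pathway. It was at 40.5, 51.6, 42.5 and 43.5 CPM in the high glucose libraries, against 54.7, 76.2, 51.7 and 48.1 CPM in the low glucose ones. The library numbered 2 was the highest of its group in both, and within every same-number pair the high glucose library was the lower. Its log2 fold change of -0.37 ± 0.14 (SE) did not pass in edgeR (adjusted p = 0.0774), but did with the replicate number as a block (-0.36 ± 0.070 SE, adjusted p = 0.00196), where 37.4% of all genes tested were called. In the authors' deposited table its adjusted p is 0.0487.

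Renbp (ENSMUSG00000031387, chromosome X, 73922121 to 73930850), the epimerase between N-acetylglucosamine and N-acetylmannosamine, was at 3.16 to 4.94 CPM at 20 mM and 3.60 to 5.46 CPM at 7.5 mM. The groups overlapped, and again the libraries numbered 2 were the highest of both. The log2 fold change was -0.17 ± 0.20 (SE) with edgeR adjusted p = 0.594.

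Ogt (ENSMUSG00000034160, chromosome X, 101640060 to 101684351) was at 89.7, 77.0, 91.5 and 102 CPM in the high glucose libraries, against 117, 66.9, 111 and 86.3 CPM in the low glucose ones. The libraries numbered 2 were the lowest of both groups, and the low glucose libraries spread more widely than the high glucose ones. The log2 fold change was -0.08 ± 0.16 (SE; edgeR adjusted p = 0.756), and -0.06 ± 0.099 (SE; adjusted p = 0.685) with the replicate block. Ogt is known to keep part of its transcripts in the nucleus with an intron retained, which a count per gene does not separate. The gene of the opposing hydrolase OGA, listed under its older symbol Mgea5, was at 101 to 118 CPM at 20 mM and 105 to 111 CPM at 7.5 mM (log2 fold change 0.04 ± 0.070 SE, edgeR adjusted p = 0.751). The count ratio of Ogt to Mgea5 was 0.786, 0.765, 0.786 and 0.870 in high and 1.06, 0.639, 0.997 and 0.776 in low glucose, with high glucose values inside the range of the low glucose ones (exact permutation p = 0.657, two-sided).

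**Figure D4:**
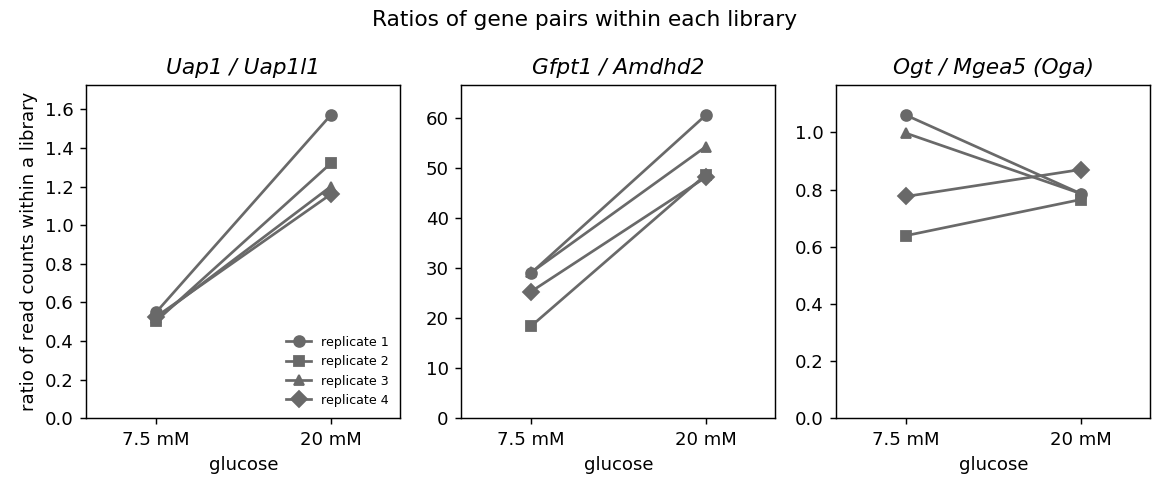
Ratio of read counts of gene pairs within each library (y axes start at 0), low glucose left and high glucose right, lines joining libraries of the same replicate number. Uap1 to Uap1l1 and Gfpt1 to Amdhd2 rise in all 4 pairs without overlap, and Ogt to Mgea5 moves in both directions.

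Genes around the pathway were read from the same fit in 8 lists. The count of each list stands beside 13.1% higher and 11.9% lower of all genes tested. With the replicate block 37.4% of all genes tested were called, in either direction. Of 2 deaminase genes that send glucosamine 6-phosphate back to fructose 6-phosphate and the sialic acid lyase gene Npl, 2 were lower and none higher. Gnpda1 was at 43.6, 49.2, 46.7 and 42.1 CPM in the high glucose libraries, against 62.6, 73.6, 74.8 and 69.8 CPM in the low glucose ones, a 1.55-fold decrease without overlap (edgeR adjusted p = 0.000298). Gnpda2 fell 1.32-fold, with high glucose at 10.5 to 13.3 and low glucose at 13.8 to 17.6 CPM (edgeR adjusted p = 0.0264), but the call was lost when single libraries were dropped, namely replicate 1 at 20 mM (0.0667), replicate 4 at 20 mM (0.0723) and replicate 1 at 7.5 mM (0.0834). The deaminases and Amdhd2, the genes for the reverse direction, were lower in all 4 same-number pairs. So were Nagk and Slc35a3, which were not called in the main test. Npl was at 0.0947 to 1.55 CPM, too low to judge (log2 fold change 0.76 ± 0.76 SE, edgeR adjusted p = 0.511).

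**Figure D5:**
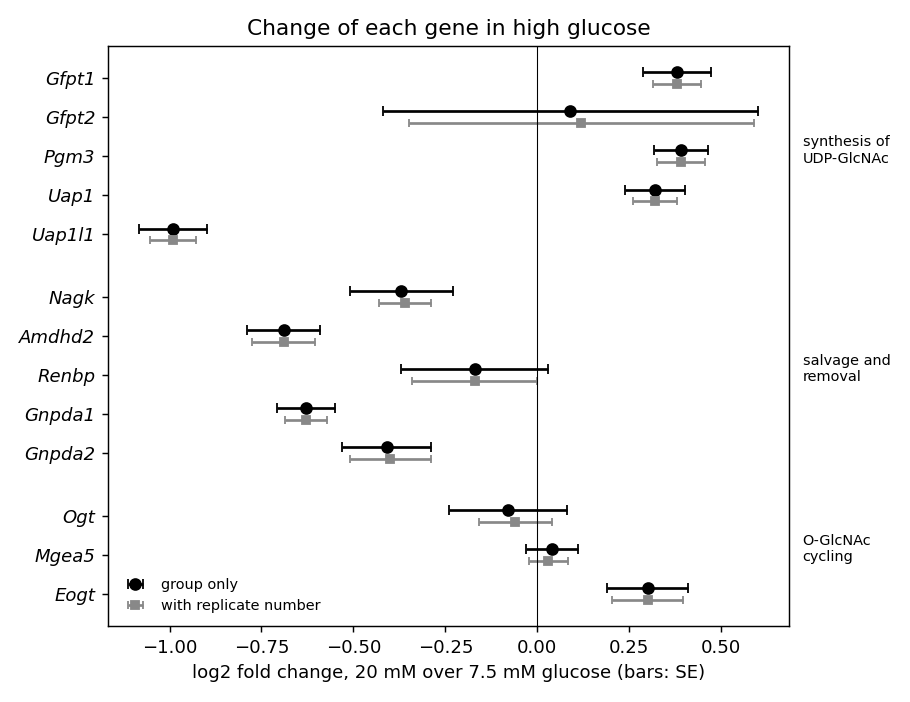
Log2 fold change of high over low glucose (x axis, bars are SE) for members and 4 related genes, from the fit with the group only (black) and with the replicate number added (grey). Of the genes drawn under synthesis, Gfpt1, Pgm3 and Uap1 lie to the right of 0, Gfpt2 at 0 within its error, and Uap1l1 to the left. Amdhd2, Gnpda1 and Gnpda2 lie to the left, and Ogt and Mgea5 at 0 within their error.

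Of 23 tested genes that use or carry UDP-GlcNAc, 8 were higher, 2 lower and 13 not past the threshold, beside 13.1% higher and 11.9% lower of all genes tested. Their median log2 fold change was 0.08, beside -0.01 over all genes. Dpagt1, which starts the N-glycan precursor on dolichol, was at 43.6, 45.6, 44.5 and 41.8 CPM in the high glucose libraries, against 23.3, 25.7, 26.2 and 26.8 CPM in the low glucose ones, a 1.72-fold rise without overlap (edgeR adjusted p = 3.41e-05). Gcnt2, a branching transferase gene, rose 1.57-fold. Mgat3 and the transporter gene Slc35b4 fell 1.51-fold and 1.53-fold. With the replicate block 8 were higher and 4 lower, where 37.4% of all genes tested were called. With replicate 2 at 7.5 mM dropped, 4 were lower. Slc35a3, the main Golgi carrier of UDP-GlcNAc, had a log2 fold change of -0.20 ± 0.071 (SE; edgeR adjusted p = 0.07), with adjusted p = 0.0167 in the replicate block and 0.0119 with replicate 2 at 7.5 mM dropped. Of 4 tested genes of sialic acid synthesis, a branch from UDP-GlcNAc, Cmas and Nans rose 2.12-fold and 1.69-fold, while Gne, the entry enzyme, had a log2 fold change of -0.04 ± 0.085 (SE; edgeR adjusted p = 0.784).

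Of 14 genes that supply the precursors of the pathway or draw on the same pools, 8 were higher and 2 lower. Of all genes tested, 13.1% were higher and 11.9% lower. The median log2 fold change of the 14 genes was 0.45. Hk2 and Nme2, both called higher, had low counts (24 to 56 and 13 to 56). Of the 8 higher genes, 3 draw on those pools (Pfkl, Pfkp and Ctps). Gpi1, which makes fructose 6-phosphate, rose 1.52-fold, Pfkp, which takes it into glycolysis, 1.77-fold, and the CTP synthase gene Ctps, which draws on UTP, 1.32-fold. Ctps had adjusted p = 0.0836 with both libraries numbered 1 left out. Glul, which makes the glutamine that GFPT1 uses, fell 1.41-fold. Dropping replicates 1, 2 or 4 at 20 mM left 5, 3 or 4 genes higher, and dropping replicates 1 or 4 at 7.5 mM left 3 or 5. Of 7 genes for the removal of GlcNAc from glycans and related conjugates, not all of them lysosomal, 2 were higher, Naglu (1.30-fold) and Aga (1.34-fold), and 2 lower, among them Nagpa (1.43-fold), which uncovers the mannose 6-phosphate tag in the Golgi. Naglu had adjusted p = 0.0602 with both libraries numbered 1 left out. Aga lost its call when any library but replicate 1 at 20 mM or replicate 2 at 7.5 mM was dropped, the highest adjusted p being 0.0956. Nagpa lost its call on dropping replicate 3 at 20 mM (adjusted p = 0.0502). Of the 2 lower calls, 1 was left on dropping replicate 1 or 4 at 20 mM or replicate 3 at 7.5 mM, and 0 on dropping replicate 3 at 20 mM.

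Of 9 partners and substrates of OGT, Trak2, a mitochondrial transport adaptor gene, rose 1.31-fold. Tet1, which encodes a DNA dioxygenase, fell 1.62-fold, and 7 were not past the threshold. Of all genes tested 25.0% were called, a share that these calls do not exceed. Trak2 had adjusted p = 0.0661 and 0.0655 with both libraries numbered 1 or 4 left out. Tet1 lost its call on dropping replicate 1, 2 or 3 at 20 mM or replicate 1 or 3 at 7.5 mM (adjusted p reaching 0.0705), and 3 genes of the list were lower on dropping replicate 2 at 7.5 mM. With the replicate block 3 were higher and 2 lower, where 37.4% of all genes tested were called. Hcfc1, which encodes a partner that OGT also cleaves, had a log2 fold change of -0.04 ± 0.16 (SE; edgeR adjusted p = 0.881). Eogt, which adds O-GlcNAc to secreted proteins in the ER, had a log2 fold change of 0.30 ± 0.11 (SE; edgeR adjusted p = 0.0713). The adjusted p was 0.0302 with the replicate block and 0.047 with both libraries numbered 2 left out. In its list of 2 none passed in the fit of all 8 libraries with the group only. Before adjustment the edgeR p of Eogt was 0.0202, so that 1 of the 2 genes was under 0.05, and after adjustment DESeq2 and limma-voom called neither gene. Of 6 unfolded protein response and stress factors, 3 were higher and none lower (4 higher and 1 lower with the block). Xbp1, whose protein is known to drive Gfpt1 in other tissues, rose 1.28-fold without overlap. Xbp1 was at 376, 397, 375 and 407 CPM in the high glucose libraries, against 298, 301, 286 and 326 CPM in the low glucose ones. A part of Xbp1 in the change of Gfpt1 was not tested. Atf6, Ern1 and Ddit3 did not pass. Their log2 fold changes were 0.19 ± 0.11, -0.02 ± 0.12 and -0.26 ± 0.098 (SE; edgeR adjusted p = 0.255, 0.913 and 0.078). Atf4 rose 1.45-fold and Atf6b 1.21-fold, the latter losing its call on dropping replicate 3 at 20 mM (adjusted p = 0.0502) or replicate 1 (0.0538) or 4 (0.0553) at 7.5 mM.

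Genes whose log2 CPM ran most like a member's over the 8 libraries were sought among all 15442 tested, as a description, since the 8 points fall into 2 groups and share libraries and depth. For Gfpt1 they were Iqsec2, Lifr and Sorbs2 (Pearson r of 0.989, 0.989 and 0.987). Uap1l1 ran most like Tmem206, Khk, the fructokinase gene, and Ociad2 (0.995, 0.994 and 0.993). Ogt ran most like the RNA helicase gene Ddx17, Gm20342 and the autophagy kinase gene Ulk1 (0.993, 0.984 and 0.98). Gfpt2 ran most like Apobr, Has2, a hyaluronan synthase gene, and Mmp19 (0.964, 0.958 and 0.955), and Has2, like Gfpt2, was low, at 0.265 to 2.26 CPM. Among the members, Uap1l1 and Amdhd2 had r = 0.98 and Gfpt1 and Amdhd2 r = -0.93, while Gfpt1 and Ogt had r = 0.28.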

How the data were processed

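RNA from 8 islet libraries (4 per group) was sequenced. Per the labels' protocols, an RNeasy micro kit gave the RNA and a NEBNext Ultra kit the libraries. The submitters' processing notes name STAR 2.5, HTSeq 2, DESeq2 and the build mm10 (GRCm38). Not given in the sources used here are the strand setting, the annotation release and how shared reads were treated. The authors deposited 1 table with whole read counts per gene and library, a scaled signal in constant ratio to the count within each library (not tested), FPKM values, and the log2 fold change, p-value and adjusted p-value of their own comparison.

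The main test was edgeR 4.0.16's quasi-likelihood F test under R 4.3.3 (TMM scaling, filterByExpr with minimum count 10 and minimum total 15, no term but the group, Benjamini-Hochberg over 15442 genes, threshold 0.05). Standard errors are the log2 fold change over the square root of F. Alternatives were DESeq2 1.42.0, limma-voom (limma 3.58.1), other scalings, no filter, left-out libraries and the replicate number as a block. The labels give both groups replicate numbers 1 to 4 without saying what they mean. Deviations from the group means correlated within same-number pairs (r = 0.101, 0.449, 0.404 and 0.475 across genes for numbers 1 to 4). The numbers were therefore taken to pair the libraries in the block fit and the sign-flip test. The main test and the 70 relabellings do not use the pairs, as the labels do not say what a number stands for. The pairing rests on the data, and for number 1 it is weak: 0.101 barely passes the limit of 0.1, and low glucose replicate 1 correlated more with high glucose replicate 4 (r = 0.207). The pipeline was tested on simulated data. Ratios of gene pairs were compared by an exact permutation test over all 70 relabellings.

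Exon overlap was counted in GENCODE M21 (GRCm38), similar transcripts were sought with blastn, and promoter windows came from RefSeq. The members and lists were chosen with earlier results of these data known. Named are all members, a fixed panel of 14 genes, up to 3 passing genes per list and direction with the smallest adjusted p, and the 3 genes most like each of 4 members. A few genes this rule names are not reported here. Other genes were named after their values were seen (Styx, Dopey1, Gm14698 and the use of Has2). Totals of 19543045 to 24949515 counts put 3 counts at 0.114 to 0.161 CPM, which covers counting error only. Of the marker lists, that for red cells could not be matched by symbol and was not used.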

Additional observations from a re-analysis of the deposited data

Results flagged for a closer look

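The members, the related genes and the 4 ratios gave 176 groups of 4 values, and in 10 of these a library stood far from the other libraries of its group, which chance gives for about 1 group in 20. None of the 10 was a member or a ratio. In 5 it was low glucose replicate 2. Its Hcfc1 level was 78.6 CPM against 132, 134 and 135 CPM in the other low glucose libraries, and its Mgea5 level was 105 CPM against 111 CPM in each of the other 3, a gap that is small in size. The same library was above its group for Aga (129 CPM against 93.0 to 98.1), Slc35a1 (41.4 CPM against 33.9 to 34.7) and Ddit3 (29.8 CPM against 27.2 to 27.6).

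In 3 groups it was high glucose replicate 4, which was below its group for Nans (78.6 CPM against 88.0 to 88.8), Mgat2 (101 CPM against 115 to 116) and Nup62 (45.5 CPM against 50.5 to 51.4). High glucose replicate 2 was low for Tet3 (24.1 CPM against 34.6 to 35.9), and low glucose replicate 3 for Nup62 (41.3 CPM against 44.7 to 45.0).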

How the results depend on the processing

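Pgm3, Uap1l1 and Amdhd2 kept direction and call under all 18 alternatives run. Gfpt1 and Uap1 kept their direction, and each lost its call under 4, as given above. The block changed no other call of a member than that of Nagk. With the replicate block, 3 members were higher and 3 lower, the third being Nagk, and among all genes 2917 were higher and 2862 lower (5779 in all, against 3854, 2023 and 1831 without it). The related lists then had 28 genes higher and 14 lower, against 24 and 9. The 2 ratios that did not overlap kept differences of 1.31 and 1.07, where the exact sign-flip permutation test of 4 pairs cannot go below p = 0.125 (0.25 adjusted). Nagk was also called by DESeq2 (adjusted p = 0.0477), with library size alone (0.0168) and with both libraries numbered 2 left out (0.00697). With both libraries numbered 1, 3 or 4 left out, all genes changed came to 2180, 2261 and 2284 (1214, 1280 and 1285 higher, and 966, 981 and 999 lower). Members higher were then 1, 1 and 2, and related genes 13, 16 and 14 higher and 5, 4 and 6 lower. With both libraries numbered 2 left out, also 6 libraries, 5033 genes changed (2563 higher and 2470 lower), with 3 members and 22 related genes higher and 3 and 13 lower. The cause was not tested. With 1 library left out, members higher were 2 to 3, members lower 2, related genes 17 to 22 higher and 6 to 13 lower. With library size alone the median of all genes moved from -0.01 to -0.09, and 37.8% of genes called were higher, against 52.5%. Low counts limit Gfpt2 and Npl.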
